A study of Mus musculus with 3 samples.

Results

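The data cover 8 mouse genes of fatty acid handling in the liver that centre on PPARA, the nuclear receptor that senses fatty acids. They are the receptor gene Ppara and 7 of its known targets, namely the omega-hydroxylases Cyp4a10 and Cyp4a14, the thioesterase Acot1, the pantetheinase Vnn1, the peroxisomal enzyme Ehhadh, the dienoyl-CoA isomerase Ech1 and the peroxisome membrane protein Pex11a. They were chosen with earlier results of these data known. Their probe sets were taken by gene symbol from the platform's probe annotation, 1 for each gene. They are 8 of the 8251 genes to which the annotation assigns a probe set of a single symbol, and 8 of the 12488 probe sets on the array. Liver RNA came from male mice homozygous for an apoE knockout on a C57BL/6JxOLA129 background, animals that develop high plasma cholesterol. At an age of 3 months, 29 such mice were assigned to 1 of 3 semi-purified diets for 12 weeks, 9 to t10,c12-CLA, 10 to c9,t11-CLA and 10 to control. The t10,c12-CLA diet and the c9,t11-CLA diet each held 1.0% by weight of the named isomer of conjugated linoleic acid (CLA), and the control diet held an equivalent 1.0% of linoleic acid, with fat giving 30% of the energy in every diet. The sample labels call the feed a western diet, and which wording applies could not be settled. Each diet was represented by 1 array, and the sources do not say whether its RNA was from 1 animal or several. All groups lacked apoE, and no wild-type liver is part of the data.

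PPARA binds DNA together with a retinoid X receptor and, when a fatty acid or a drug of the fibrate class occupies it, raises transcription of genes for fatty acid breakdown. In mouse liver the best known of these genes act in the endoplasmic reticulum, where CYP4A enzymes hydroxylate the last carbon of a fatty acid, and in peroxisomes, where long fatty acids and the dicarboxylic acids made by omega oxidation are shortened. Rodent peroxisomes multiply under such drugs, and Cyp4a10, Cyp4a14, Acot1 and Ehhadh are classic markers of that response. CLA isomers are conjugated dienes and are themselves known ligands of PPARs in cell assays.

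Promoter sequences, 250 bases before to 50 bases after the gene start in RefSeq on GRCm38.p6, were at hand for 5 of the 8 genes, namely Ppara, Acot1, Ehhadh, Ech1 and Pex11a. Those of Acot1, Ehhadh and Pex11a are shown, because Acot1 and Ehhadh had the lowest c9,t11-CLA signals relative to control among the 5 and Pex11a was the gene that stood apart on the t10,c12-CLA array. Sequences run 5′ to 3′ on the strand of the gene, and capitals mark the promoter element CCAAT on either strand.
Acot1, chr12:84009252-84009551, plus strand: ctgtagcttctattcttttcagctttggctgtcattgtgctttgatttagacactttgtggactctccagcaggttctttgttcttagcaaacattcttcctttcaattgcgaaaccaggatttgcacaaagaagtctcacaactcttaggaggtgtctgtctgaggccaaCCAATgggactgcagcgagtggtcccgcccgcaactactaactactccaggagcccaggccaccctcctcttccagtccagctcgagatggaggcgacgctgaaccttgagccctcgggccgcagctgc
Ehhadh, chr16:21787785-21788084, minus strand: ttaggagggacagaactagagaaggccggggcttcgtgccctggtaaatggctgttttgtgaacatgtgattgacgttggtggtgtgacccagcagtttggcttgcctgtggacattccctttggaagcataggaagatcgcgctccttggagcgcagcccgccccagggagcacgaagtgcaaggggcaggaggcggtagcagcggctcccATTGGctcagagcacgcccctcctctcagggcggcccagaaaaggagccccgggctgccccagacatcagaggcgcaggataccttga
Pex11a, chr7:79743082-79743381, minus strand: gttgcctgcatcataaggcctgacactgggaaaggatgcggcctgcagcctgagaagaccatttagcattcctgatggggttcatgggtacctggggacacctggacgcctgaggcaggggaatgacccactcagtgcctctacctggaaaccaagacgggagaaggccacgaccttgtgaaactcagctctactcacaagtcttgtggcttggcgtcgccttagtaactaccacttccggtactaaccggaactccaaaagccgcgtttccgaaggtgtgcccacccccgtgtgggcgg
The element CCAAT began 79 bases before the gene start of Acot1 and 38 bases before that of Ehhadh, and the windows of Pex11a, Ech1 and Ppara held none, whereas 37.4% of 32851 promoter windows of 300 bases held at least 1. The PPAR response element is a direct repeat of AGGTCA with a spacer of 1 base. None of the 5 windows held AGGTCA on either strand, which 16.3% of all windows did. None held the direct repeat with up to 2 mismatches either, a match present in 3.86% of all windows. The closest stretch had 4 mismatches in Ppara, Acot1, Ehhadh and Ech1 and 5 in Pex11a, and 79.8% of all windows held a stretch with 4 or fewer, so that these counts are those of the background. These letters were searched for in the windows of 300 bases only, which leaves out any more distant element.

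Values are MAS5 signals, hybridisation intensities on a linear scale that the authors had brought to a common trimmed mean, 1501 on every array. A probe set was taken as measured in a comparison when it lay above a floor of 490.3, the pooled median of all signals, on both arrays. The median signal was 486.5 on the t10,c12-CLA, 523.5 on the c9,t11-CLA and 457.1 on the control array, and the highest signal was 71111, 135007 and 70778 in the same order. The 3′ to 5′ signal ratio, which rises as RNA breaks down, lay between 0.78 and 1.06 for Gapdh and between 1.35 and 1.89 for beta-actin. The highest beta-actin value was on the c9,t11-CLA array. For Gapdh the highest value was on the control array, and the c9,t11-CLA array gave 0.98. With 1 array per diet there is no replicate check on any difference and no test was possible. As a yardstick of measurement error, pairs of probe sets of the same gene gave an SD of a single log2 difference of 0.40 for t10,c12-CLA versus control (576 pairs), 0.50 for c9,t11-CLA versus control (537 pairs) and 0.51 between the isomers (563 pairs). The yardstick holds no variation between mice.

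All 8 genes lay above the floor on all 3 arrays, with signals between 890.5 and 20114. All 8 also had their lowest signal on the c9,t11-CLA array, as did 33.0% of 4721 probe sets above the floor on every array. Their highest signal was on the t10,c12-CLA array for Ppara, Cyp4a14, Acot1, Vnn1 and Pex11a and on the control array for Cyp4a10, Ehhadh and Ech1. The genes differed more among themselves in the span of their signals than in this order. The highest signal was 7.30 times the lowest for Cyp4a14, 5.93 times for Vnn1, 5.27 times for Pex11a and 4.93 times for Acot1, but 1.35 times for Ppara.

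**Figure D1:**
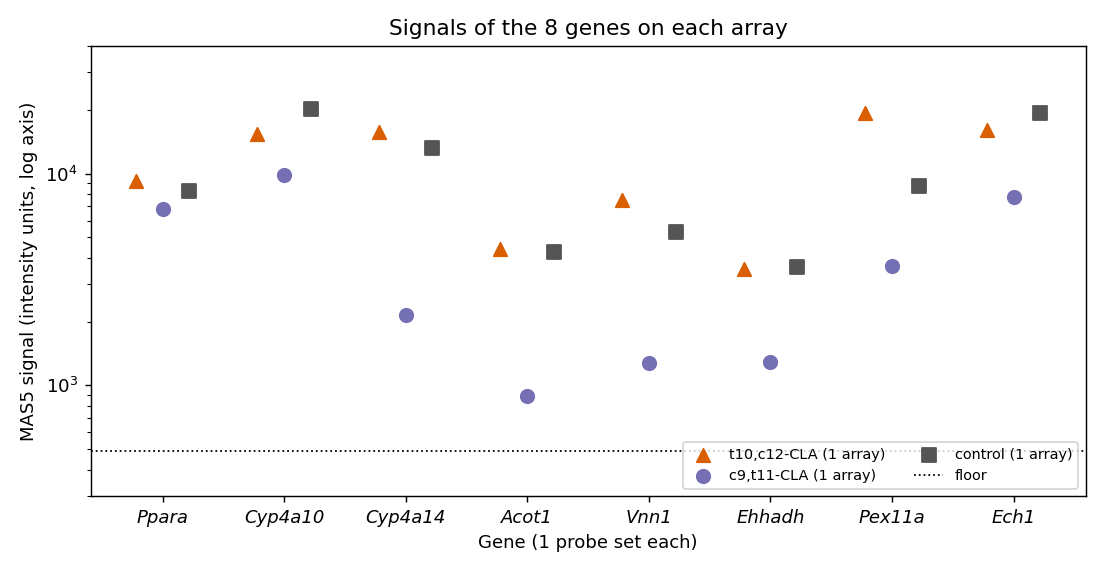
MAS5 signal (intensity units, log axis) of each of the 8 genes on the t10,c12-CLA, c9,t11-CLA and control arrays, 1 point per array and gene, with the floor of 490.3 as a dotted line. The c9,t11-CLA point is the lowest of the 3 for every gene, and levels are not comparable between genes because each probe set has its own response.

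On the c9,t11-CLA diet, 7 of the 8 genes were at least 2-fold lower than on the control diet and none was 2-fold higher. Among 4932 measured probe sets with 1 gene symbol, 2.76% lay 2-fold or more below control and 3.24% as far above. Because the 8 genes were chosen with earlier results of these data known, setting their counts against such shares, here and below, is no test of the set. When the array medians were set equal, these shares were 5.17% and 1.86%, and 7 of 8 genes were again 2-fold lower. The median log2 difference of the 8 genes was -1.41, against 0.03 for all measured probe sets. The exception was the receptor gene itself. In bulk tissue, fewer cells of a type and less RNA per cell cannot be told apart.

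Ppara, which encodes the receptor, gave a signal of 9218.5 on the t10,c12-CLA, 6812 on the c9,t11-CLA and 8259 on the control array. The log2 difference was -0.28 for c9,t11-CLA and 0.16 for t10,c12-CLA against control, and 0.44 between the isomers. Each of these was smaller than the yardstick SD of its comparison. Of the measured probe sets, 26.4% were as low or lower in the c9,t11-CLA comparison. The receptor gene thus sat within the 5th to 95th percentile of all probe sets, -0.82 to 0.88, and its 7 targets below that span.

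Cyp4a14, a microsomal fatty acid omega-hydroxylase, gave 15776 on the t10,c12-CLA, 2161 on the c9,t11-CLA and 13225 on the control array. The t10,c12-CLA and control signals were close and the c9,t11-CLA signal stood far below both. It was 6.12-fold lower on c9,t11-CLA than on control, which placed it at rank 2 from the lowest of 4932 measured probe sets. Cyp4a10, the neighbouring enzyme of the same subfamily and reaction, gave 15310 on the t10,c12-CLA, 9794 on the c9,t11-CLA and 20114 on the control array. Here the order was graded, with control highest. The 2.05-fold difference between c9,t11-CLA and control lay at the edge of the 2-fold size, at rank 119 from the lowest. After quantile normalization its log2 difference was -0.97, and after subtracting the median of the 500 probe sets nearest in brightness it was -0.96, both just short of 2-fold. The identifier of the Cyp4a10 probe set marks it as able to bind related transcripts, so its signal may include other members of the family. That of Cyp4a14 carries no such mark.

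Acot1, a cytosolic thioesterase that releases free fatty acids from long-chain acyl-CoA, gave 4387 on the t10,c12-CLA, 890.5 on the c9,t11-CLA and 4243 on the control array. The t10,c12-CLA and control values nearly coincided. The 4.76-fold lower signal on c9,t11-CLA than on control ranked 5 from the lowest. Acot1 belongs to a cluster of closely related thioesterase genes, and whether its probe set also binds their transcripts was not tested. Vnn1, an enzyme at the cell surface that splits pantetheine into cysteamine and pantothenate, the vitamin part of coenzyme A, gave 7533 on the t10,c12-CLA, 1270 on the c9,t11-CLA and 5274 on the control array. It was 4.15-fold lower on c9,t11-CLA than on control, at rank 6, and the t10,c12-CLA signal was the highest of the 3. Cyp4a14, Acot1 and Vnn1 were thus all among the 6 lowest of 4932 measured probe sets. Of the 500 measured probe sets nearest to each of them in brightness, 0 were as low. Probe sets below the floor on either array were left out of these ranks and counts, whatever their difference.

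The genes of the peroxisome had c9,t11-CLA differences smaller than that of Vnn1 and larger than that of Cyp4a10. Ehhadh, the bifunctional hydratase and dehydrogenase of peroxisomal beta-oxidation, gave 3555 on the t10,c12-CLA, 1284 on the c9,t11-CLA and 3637 on the control array, 2.83-fold lower on c9,t11-CLA than on control. Ech1 moves double bonds in dienoyl-CoA, a step needed to break down unsaturated fatty acids, and is found in peroxisomes and mitochondria. It gave 16017 on the t10,c12-CLA, 7786 on the c9,t11-CLA and 19395 on the control array, 2.49-fold lower on c9,t11-CLA than on control. Pex11a, a membrane protein that elongates peroxisomes before they divide, gave 19301 on the t10,c12-CLA, 3659 on the c9,t11-CLA and 8687 on the control array. It was 2.37-fold lower on c9,t11-CLA than on control and was the gene of the set whose t10,c12-CLA signal also stood well clear of control. In the c9,t11-CLA comparison Ehhadh ranked 20, Ech1 43 and Pex11a 55 from the lowest. All 3 log2 differences, -1.50, -1.32 and -1.25, were more than 2 times the yardstick SD of 0.50, as were those of the 4 other targets. That cutoff, 1.01, is nearly the 2-fold size, which 2.76% of all measured probe sets reached downward. Cyp4a10 passed it narrowly at -1.04, and its values of -0.97 after quantile normalization and -0.96 after centring on brightness fell short of it.

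**Figure D2:**
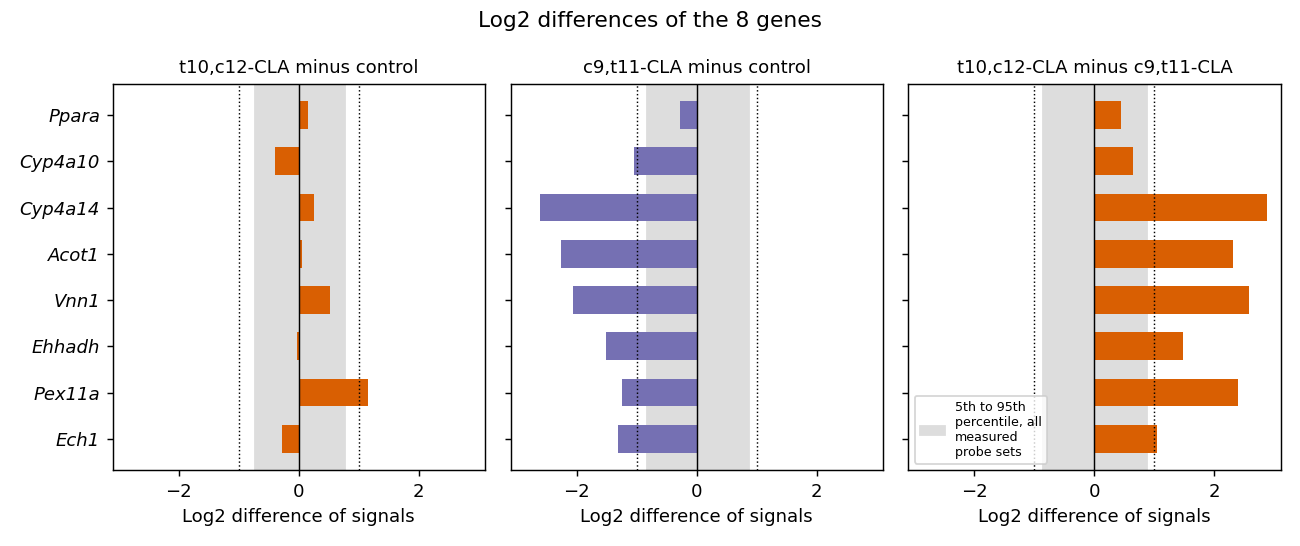
Log2 differences of the 8 genes (bars) for t10,c12-CLA minus control, c9,t11-CLA minus control and t10,c12-CLA minus c9,t11-CLA. Grey bands span the 5th to 95th percentile of all measured probe sets, dotted lines mark 2-fold, and 7 bars in the middle panel reach beyond -1 while 1 bar in the left panel reaches beyond 1.

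On the t10,c12-CLA diet, 1 of the 8 genes was at least 2-fold higher than on the control diet and none was 2-fold lower. Of 5037 measured probe sets, 2.18% lay 2-fold or more above control and 1.87% as far below, or 1.66% and 2.62% with equal array medians. The gene was Pex11a, 2.22-fold higher, at rank 67 from the highest. Its log2 difference of 1.15 exceeded 2 times the yardstick SD of 0.40 and lay between 1.06 and 1.23 under every alternative scaling. Vnn1 came next at 0.51, or 1.43-fold higher. The others lay between -0.39 for Cyp4a10 and 0.25 for Cyp4a14, all inside the yardstick SD. The median of the 8 genes was 0.10, with 5 positive and 3 negative values, and the sign of Acot1, at 0.05, turned to -0.04 with equal array medians.

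Between the isomers, 6 of the 8 genes had a t10,c12-CLA signal 2-fold or more above the c9,t11-CLA signal and none lay as far below it. The background was 3.43% higher and 2.65% lower of 5017 measured probe sets, or 4.64% and 1.75% with equal array medians. The isomers have the same length and differ in the place and geometry of their conjugated double bonds, and they were given at the same weight and for the same time. The ratio of the t10,c12-CLA to the c9,t11-CLA signal was 7.30 for Cyp4a14, 5.93 for Vnn1, 5.27 for Pex11a, 4.93 for Acot1, 2.77 for Ehhadh and 2.06 for Ech1. Cyp4a14, Vnn1, Pex11a and Acot1 ranked 2, 4, 6 and 8 from the highest of all measured probe sets. Cyp4a10, 1.56-fold higher, and Ppara, 1.35-fold higher, did not reach 2-fold. Ech1 stood at the edge, with a log2 difference of 1.04 that became 0.97 after quantile normalization and 0.99 relative to probe sets of like brightness. The median over the 8 genes was 1.88, against -0.05 over all probe sets. This comparison uses the same c9,t11-CLA array as the comparison with control, so its values do not stand as separate evidence for the low c9,t11-CLA signals.

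**Figure D3:**
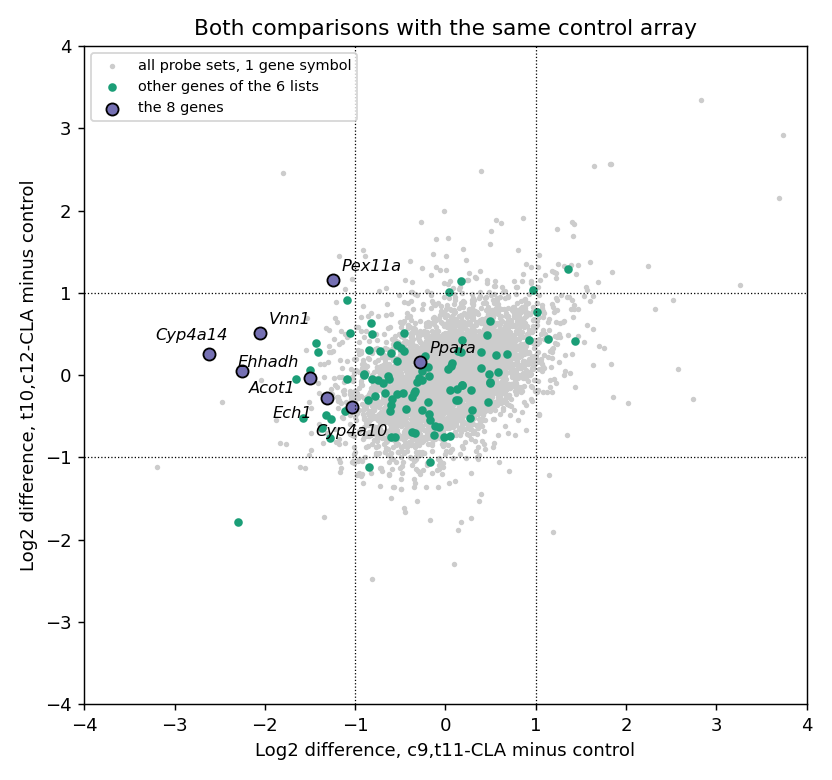
Log2 difference of t10,c12-CLA minus control (vertical) against c9,t11-CLA minus control (horizontal) for probe sets above the floor on all 3 arrays, with the 8 genes in purple and the other listed genes in green; dotted lines mark 2-fold. Both axes share the control array, and 7 of the 8 genes lie left of -1 while Pex11a alone of the 8 lies above 1.

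The wider pathway was described with 6 lists that hold 174 genes beside the 8, of which 106 had a probe set. Over all lists, 14 of 100 measured probe sets were at least 2-fold lower on c9,t11-CLA than on control, whereas 4 lay as far above it, against 2.76% and 3.24% of all measured probe sets. On t10,c12-CLA, 3 of 101 were 2-fold lower and 4 were 2-fold higher than on control, or 2.97% and 3.96%, near the 1.87% and 2.18% of all measured probe sets. The median log2 difference over all lists was -0.28 on c9,t11-CLA and -0.05 on t10,c12-CLA, so the lists as a whole lay nearer to 0 than the 8 genes.

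Of the other omega-oxidation genes, 1 of 12 measured probe sets was 2-fold lower on c9,t11-CLA than on control, and the list's median was -0.15. It belonged to Aldh3a2, the fatty aldehyde dehydrogenase that acts after the CYP4A step, with 21390 on the t10,c12-CLA, 6021 on the c9,t11-CLA and 16279 on the control array. Its second probe set, of a kind that can bind related transcripts, had a log2 difference of -0.46. Cyp4a12b, a further member of the CYP4A subfamily, gave 24597 on the t10,c12-CLA, 21955 on the c9,t11-CLA and 24856 on the control array, a log2 difference of -0.18 on c9,t11-CLA. Within 1 subfamily the c9,t11-CLA differences therefore ran from -2.61 for Cyp4a14 over -1.04 for Cyp4a10 to -0.18 for Cyp4a12b. Bright genes of the list were Cyb5a, the electron donor cytochrome b5, at 0.48 and the alcohol dehydrogenase Adh1 at 0.14. On t10,c12-CLA, Adh4, an alcohol dehydrogenase, had log2 differences of -1.06 and -0.72 by its 2 probe sets.

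In the list of other peroxisomal oxidation genes, 3 of 22 measured probe sets were 2-fold lower on c9,t11-CLA than on control and none was 2-fold higher, with a median of -0.32. Scp2, which encodes a peroxisomal thiolase and lipid transfer protein, gave 44971 on the t10,c12-CLA, 14676 on the c9,t11-CLA and 46286 on the control array, a log2 difference of -1.66. A second probe set of Scp2 stood at -0.47, the same direction at a smaller size. Eci2, an enoyl-CoA isomerase, and Crat, carnitine acetyltransferase, had log2 differences of -1.09 and -1.06. Hsd17b4, the D-specific counterpart of Ehhadh, stood at -0.84, and the thiolase Acaa1b at -0.74 and -0.67 by its probe sets. Catalase, Cat, which removes the hydrogen peroxide that peroxisomal oxidation makes, stood at -0.01 and 0.58 by its 2 probe sets, and Phyh, which starts the breakdown of phytanic acid, at 0.49. The list thus held both signs, 16 negative and 6 positive. On t10,c12-CLA none of its 22 measured probe sets differed 2-fold from control in either direction.

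Among 5 measured probe sets of other thioesterases and coenzyme A genes, Vnn3, the second pantetheinase of the mouse, was 2-fold lower on c9,t11-CLA than on control, with 2173 on the t10,c12-CLA, 1353 on the c9,t11-CLA and 2930 on the control array. The peroxisomal thioesterase Acot8 stood at -0.61, Acot13 at 0.07 and Coasy, which makes coenzyme A, at -0.35. Genes of peroxisome assembly and division had a median of 0.02 over 13 measured probe sets. Pex19, the carrier of peroxisomal membrane proteins, was the one that was 2-fold lower, with 4908 on the t10,c12-CLA, 1511 on the c9,t11-CLA and 4032 on the control array. Pex14, of the import machinery, had log2 differences of 0.17, 0.02 and 1.02 by its 3 probe sets on c9,t11-CLA and of 1.14, 0.07 and 0.77 in the same order on t10,c12-CLA, so that its probe sets did not give a common size. The brightest others, Pxmp2 and Pex5, stood at 0.27 and -0.34 on c9,t11-CLA.

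Receptor partners and cofactors had 10 measured probe sets on c9,t11-CLA, none 2-fold lower and 2 at least 2-fold higher. Lpin1, a phosphatidate phosphatase that also acts as a coactivator of PPARA, gave 7588 on the t10,c12-CLA, 7994 on the c9,t11-CLA and 3117 on the control array and was higher on either CLA diet. Med1, a Mediator subunit, had a log2 difference of 1.14 on c9,t11-CLA, from a control signal of 492.7 just above the floor. Rxra, the receptor partner of PPARA, had log2 differences of 0.96 and 0.46 by its probe sets on c9,t11-CLA and of 1.03 and 0.49 on t10,c12-CLA. Nrip1, a corepressor, stood at -0.84 on c9,t11-CLA and -1.11 on t10,c12-CLA. The nuclear receptors Rxrb and Nr1h3 stood at -0.63 and -0.59 on c9,t11-CLA.

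Other PPARA targets, mostly of mitochondrial oxidation and lipid handling, had 8 of 38 measured probe sets at least 2-fold lower on c9,t11-CLA than on control and 1 at least 2-fold higher, with a median of -0.54. The lower ones were G0s2 at -2.30, Etfdh at -1.58, Retsat at -1.50, Hadh at -1.37, Slc25a20 at -1.32, Decr1 at -1.28, Slc22a5 at -1.26 and Me1 at -1.09. They include enzymes and carriers of mitochondrial beta-oxidation and also the lipase inhibitor G0s2, the retinol saturase Retsat and malic enzyme, Me1. The higher one was Apoa2, a high-density lipoprotein protein, at 1.43, from a probe set of a kind that can bind related transcripts. Fabp1, the liver fatty acid binding protein and a well-known PPARA target, gave 38347 on the t10,c12-CLA, 37010 on the c9,t11-CLA and 35458 on the control array, a log2 difference of 0.06 on c9,t11-CLA, and Cpt1a and Acaa2 stood at 0.17 and 0.68. On t10,c12-CLA the list had a median of 0.04 over 37 measured probe sets, with Pdk4 2-fold higher at 1.01 and G0s2 2-fold lower at -1.78. Between the isomers, 12 of 100 measured probe sets of the 6 lists were 2-fold higher on t10,c12-CLA and 1, that of Apoa2 at -1.02, was 2-fold lower, against 3.43% and 2.65% of all measured probe sets. The 12 were Me1 at 2.01, Aldh3a2 at 1.83, Pex19 at 1.70, Scp2 at 1.62, Crat at 1.58, Retsat at 1.57, Mgll at 1.45, Hsdl2 at 1.31, Hsd17b4 at 1.15, Etfdh at 1.06, Eci2 at 1.04 and Acadm at 1.02. The lists were made of genes of fatty acid handling, so what the 12 have in common follows in part from that choice. Second probe sets gave smaller differences for Aldh3a2, at 0.98, for Hsdl2, at 0.92, and for Scp2, at 0.26. For Mgll, the lipase of monoacylglycerols, the second probe set went the other way, with 349.4 on the t10,c12-CLA, 707.0 on the c9,t11-CLA and 253.4 on the control array. It was above the floor on the c9,t11-CLA array only, by 1.44-fold. The second probe set of Apoa2 was likewise above the floor on the c9,t11-CLA array only, with 607.1 there.

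**Figure D4:**
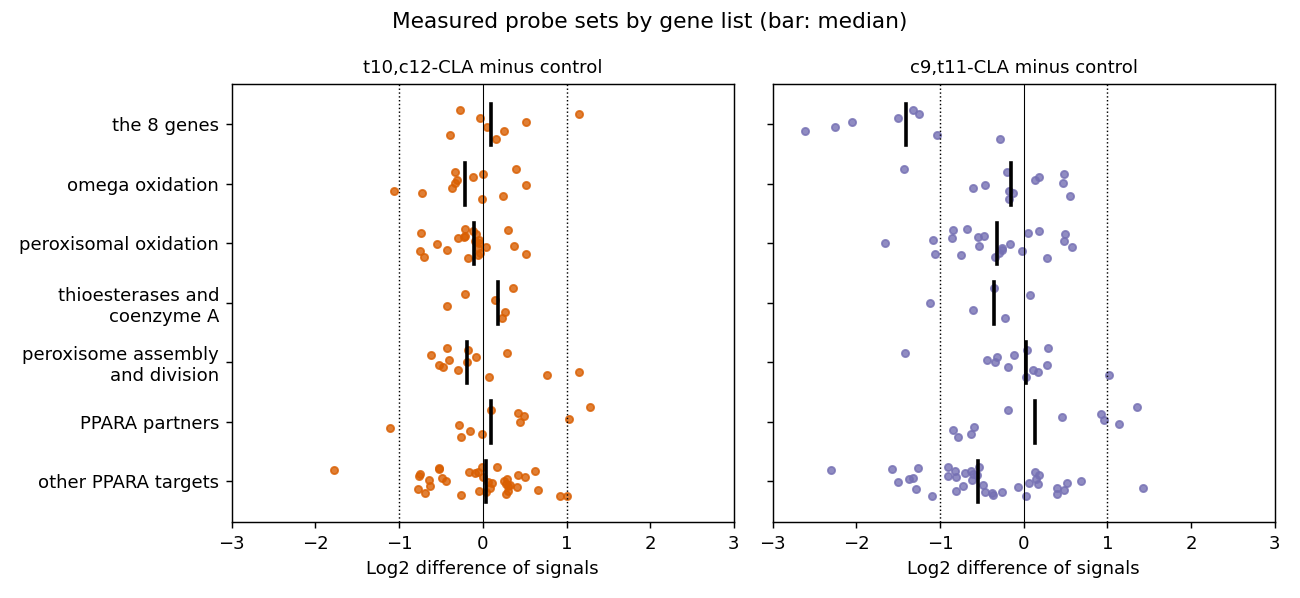
Log2 differences of measured probe sets of the 8 genes and of the 6 lists for t10,c12-CLA minus control and c9,t11-CLA minus control (points, 1 per probe set; black bars, medians; dotted lines, 2-fold). The median of the 8 genes is 0.10 on t10,c12-CLA and -1.41 on c9,t11-CLA, and among the lists the lowest c9,t11-CLA median is -0.54, for other PPARA targets.

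Genes whose pattern over the 3 arrays was most like that of the 8 were sought by the distance between their pair of log2 differences from control and the medians of the 8, -1.41 and 0.10, among 4713 probe sets. The 5 nearest were Akirin1 at a distance of 0.04, Prkcz at 0.07, Retsat at 0.10, H2-DMb1 at 0.12 and Acp1 at 0.14. On the c9,t11-CLA array Akirin1, H2-DMb1 and Acp1 gave 513.7, 585.2 and 609, not far above the floor of 490.3. The identifiers of the Prkcz, H2-DMb1 and Acp1 probe sets carry a suffix mark. Members of the set themselves lay between 0.16, for Ehhadh, and 1.21, for Cyp4a14. Other probe sets, taken without regard to the floor, did not share the pattern for Akirin1, Prkcz or Acp1. The second of Akirin1 had a c9,t11-CLA difference of 1.34, and the others of Prkcz stood at 0.10 and -0.27. Retsat, itself a PPARA target and taken up in a list, had 14733 on the t10,c12-CLA, 4972 on the c9,t11-CLA and 14073 on the control array.

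The tissue label was met, since 17 of 17 probe sets of hepatocyte marker genes lay above the floor on every array. Their summed signal was 438262 on the t10,c12-CLA, 734260 on the c9,t11-CLA and 394132 on the control array, and 15 of 17 were higher on c9,t11-CLA than on control. Their median log2 difference on c9,t11-CLA versus control was 0.65, against 0.03 for all measured probe sets. A few bright probe sets can dominate such sums, and the highest signal of any probe set was 135007 on the c9,t11-CLA and 70778 on the control array. Of the other marker lists, macrophage genes summed to 96510 on the t10,c12-CLA, 63639 on the c9,t11-CLA and 71437 on the control array, with 6 of 11 measured probe sets higher on c9,t11-CLA than on control. Stellate cell genes summed to 68798, 46716 and 54124 in the same order, with 4 of 10 higher. Sums for endothelial cells lay between 13301 and 18217, for bile duct cells between 703.4 and 985.6, for lymphocytes between 6246 and 8788, for neutrophils between 2709 and 4683, for erythroid cells between 36658 and 37910 and for adipocytes between 3070 and 4229. All 7 probe sets of bile duct cells were below the floor on every array. The part of cell makeup, brightness or RNA integrity in the low signals of the 8 genes was not tested.

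**Figure D5:**
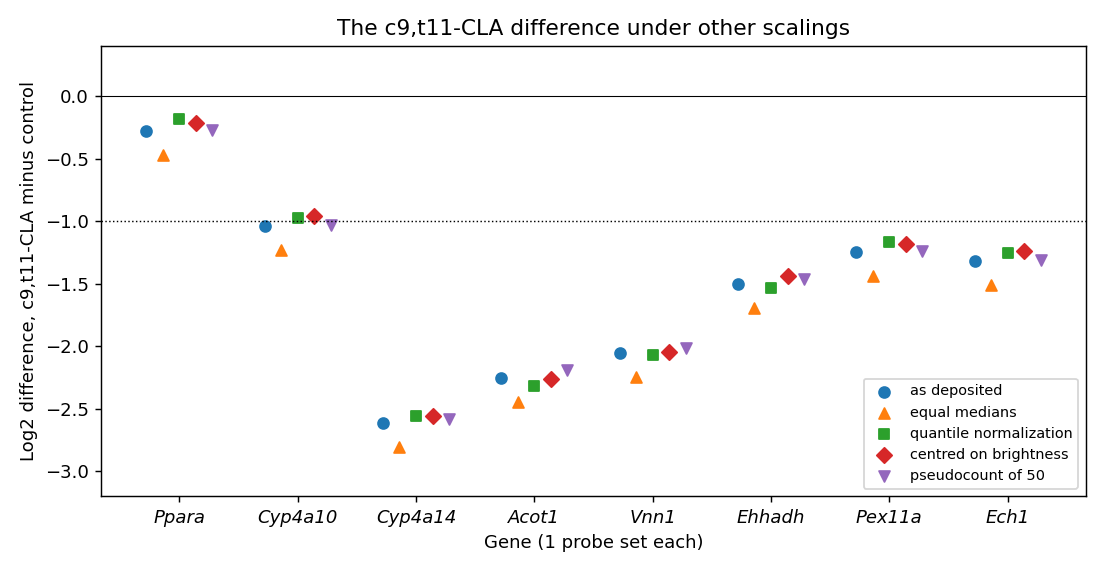
Log2 difference of c9,t11-CLA minus control for each of the 8 genes as deposited, with equal array medians, after quantile normalization, centred on probe sets of like brightness and with a pseudocount of 50. The dotted line marks 2-fold lower, all points lie below 0, and Cyp4a10 is the gene whose points fall on either side of the line.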

How the data were processed

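The values are MAS5 signals, a hybridisation intensity per probe set, deposited by the authors; MAS5 is named in the submitters' processing notes, with no version in the sources read. Per the labels' protocols, biotinylated cRNA was made from 8 µg of total RNA. Equal 2% trimmed means show that the deposited intensity values had been scaled before. Gene symbols came from the platform annotation, updated through Entrez identifiers in a RefSeq table of GRCm38.p6, used for names, chromosomes and promoters. Of 12488 probe sets, 10833 had 1 symbol, 396 several and 1193 none, and 66 were array controls. Log2 differences were taken without further scaling, and the size used for counts was 2-fold. With 1 array per diet, no test was made and the number of arrays limits the precision.

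The members, lists and rules were chosen with earlier results of these data known. Named list genes were those past 2-fold in a comparison and up to 3 of the brightest others, and Cat was named outside this rule. Further probe sets of Fabp1, Pex19 and Coasy were below the floor on every array and are not given. Those of other named genes are given for at least 1 comparison. The 5 genes of like pattern were chosen by distance. Alternatives were equal medians, quantile normalization, floors at the 25th and 75th percentile, a pseudocount of 50, no suffix-marked probe sets and 1 probe set per gene; centring on brightness was added after seeing the data. Python 3.11.15, numpy 2.4.6, pandas 2.3.3, scipy 1.17.1 and matplotlib 3.10.9 were used, and the counts were checked on simulated data.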

Additional observations from a re-analysis of the deposited data

How the results depend on the processing

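Under 8 alternatives, 183 log2 differences of the 8 genes were recomputed. None moved by more than the yardstick SD, 4 crossed the 2-fold size (those of Cyp4a10 and Ech1 given above) and 1 changed sign, that of Acot1 on t10,c12-CLA versus control. Raising the floor to 1511, the 75th percentile, meant that the c9,t11-CLA signals of Acot1, Vnn1 and Ehhadh no longer counted as measured. Of the 5 genes left, 4 were then 2-fold lower on c9,t11-CLA than on control and 3 were 2-fold higher on t10,c12-CLA than on c9,t11-CLA, with a median log2 difference of 1.04 between the isomers; fewer measured genes set these values. Under the other 7 alternatives, 6 or 7 genes were 2-fold lower on c9,t11-CLA than on control. The number 2-fold higher on t10,c12-CLA than on c9,t11-CLA was 5 or 6. The shares of all measured probe sets were less steady than these counts. For 2-fold lower on c9,t11-CLA than on control, lowering the floor to 144.9 took the share from 2.76% to 6.16%. For 2-fold higher on t10,c12-CLA than on c9,t11-CLA, it went from 3.43% to 7.04%. Raising the floor to 1511 brought these shares to 1.79% and 2.57%. Equal medians and quantile normalization moved the log2 differences of all probe sets by a median of -0.20 and -0.22 for c9,t11-CLA versus control. Under quantile normalization the shift was not uniform, and the median of the 8 genes went from -1.41 to -1.39. Over all lists, 9 to 21 probe sets were 2-fold lower on c9,t11-CLA than on control, fewest with the high floor and most with equal medians. The share of all measured probe sets moved the same way, from 2.76% to 1.79% with the high floor and to 5.17% with equal medians. Shares also moved for the counts that follow, for example from 3.24% higher on c9,t11-CLA than on control to 1.86% with equal medians. List counts moved by over 1.5 times in other cases too: the 4 higher on c9,t11-CLA became 2 with equal medians, quantile normalization, the high floor or no suffix-marked probe sets, the 4 higher on t10,c12-CLA than on control became 2 with either rescaling or the high floor, the 3 lower there became 5 with the low and 1 with the high floor, and the 1 lower on t10,c12-CLA than on c9,t11-CLA became 0 or 2. No paired analysis was possible because each diet had 1 array. Differences of dim genes, and any variation between mice, are beyond these data.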

Other observations

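Some listed genes were above the floor on the t10,c12-CLA array only, and were picked out after their values were seen. Cidec, a lipid droplet protein, gave 905.4 on the t10,c12-CLA, 38.8 on the c9,t11-CLA and 43.6 on the control array, so that the t10,c12-CLA signal exceeded either by at least 1.85-fold. A second probe set of Crat, carnitine acetyltransferase, gave 978.1, 118.3 and 294.7 in the same order, an excess of at least 1.99-fold over either. Pparg, the receptor most active in fat cells, gave 402.9, 48.3 and 313.1 and so stayed below the floor on all 3 arrays.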
